A study of Mus musculus with 12 samples.

Results

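Chromosome 11 of the mouse carried 2772 of the 31891 genomic regions at which a peak of acetylated histone H4 (H4ac) was listed in C2C12 cells, an established line of mouse myoblasts. The regions were obtained by taking every chromosome 11 row of 6 peak lists and merging peaks that overlapped or touched into union regions, with no selection on signal. Each list came from 1 ChIP-seq library, made with a rabbit antibody against acetylated H4. In 3 libraries the cells had been transduced by lentivirus with MLX-DN and in 3 with MLX-WT. MLX-DN is read here as a dominant-negative form of the transcription factor MLX, although one label field calls these samples MLX down and none spells the abbreviation out. The peak names of both groups carry a tag for glucose being present. Both groups are transduced cell populations of 1 line, each carrying an introduced MLX sequence, so neither is an untransduced control. Nothing in the labels says that the replicates were separate cultures, and p-values therefore measure only the spread between these libraries, which may be technical. Positions are in the mm9 build, counted from 1.

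Histone acetyltransferases acetylate lysines in the H4 tail, which loosens the packing of nucleosomes and is read by bromodomain proteins, and acetylated H4 lies mainly at active promoters and enhancers. MLX is the obligate partner of MondoA and ChREBP, and these pairs bind carbohydrate response elements and activate genes of glucose metabolism. Mouse chromosome 11 is known for clusters of related genes, among them the skeletal muscle myosin heavy chains and the Hoxb genes, and it carries the Mlx gene itself. RefSeq (assembly GRCm38.p6) places 1609 protein-coding genes on it, ranking 3rd of the 20 chromosomes. Per Mb of the length spanned by peaks this is 13.2 genes, second to chromosome 7 with 13.3, so the description of the chromosome as gene-dense held. The annotation is of another build than the peak lists, and no region was therefore assigned to a gene.

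H4ac peaks were denser on chromosome 11 than on any other chromosome in all 6 libraries. The MLX-DN lists held 1353, 2235 and 1489 peaks on it, and the MLX-WT lists 514, 1353 and 925; values by library are given here and throughout from replicate 1 to replicate 3. Over the 121.67 Mb up to the last peak this came to 11.1, 18.4 and 12.2 peaks per Mb in MLX-DN versus 4.22, 11.1 and 7.60 in MLX-WT. The next chromosome reached 8.26, 13.9 and 9.77 peaks per Mb in MLX-DN versus 4.12, 9.48 and 6.62 in MLX-WT. It was chromosome 17 in MLX-DN replicate 1 and chromosome 15 in the others. The margin was thus wide in 5 libraries and narrow in MLX-WT replicate 1, the shortest list. Over the merged regions chromosome 11 had 22.8 regions per Mb, against 18.01 on chromosome 15. Relative to its protein-coding genes it ranked lower, with 172 regions per 100 genes, ranking 4th of the 20 chromosomes.

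The number of peaks on chromosome 11 was higher on average in MLX-DN, but the groups touched. The mean was 1692 ± 475 peaks in MLX-DN versus 931 ± 420 in MLX-WT (SD, n = 3), a ratio of geometric means of 1.91. MLX-DN replicate 1 and MLX-WT replicate 2 listed the same number (exact permutation test on the log2 number, two-sided, p = 0.20, with 0.10 the smallest value that 3 libraries against 3 allow). Peaks covered 642, 1178 and 724 kb in MLX-DN versus 218, 647 and 409 kb in MLX-WT, a ratio of 2.12, and here too the groups overlapped (exact permutation p = 0.20). On the other chromosomes together the ratio of peak numbers was 2.12, and that of chromosome 11 ranked 15th of 20.

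With a smaller ratio than the other chromosomes together, chromosome 11 took a lower share of the MLX-DN lists. It held 8.90%, 9.01% and 8.81% of the peaks of the MLX-DN libraries and 9.55%, 9.91% and 9.82% of those of the MLX-WT libraries. The means were 8.91% ± 0.0983 and 9.76% ± 0.190 (SD, n = 3), and every MLX-WT library lay above every MLX-DN library (exact permutation test, two-sided, p = 0.10, the smallest possible). Such a separation was common: the groups did not overlap on 85% of the 20 chromosomes, with a lower MLX-DN share on 8 and a higher 1 on 9. The difference on chromosome 11 was the 3rd largest of the lower ones, after chromosomes 15 and 2. In lists of equal length, the 5385 strongest peaks of each library by the authors' −log10 q, chromosome 11 held 478, 476 and 463 peaks in MLX-DN versus 514, 581 and 532 in MLX-WT. The number was then lower in every MLX-DN library, the reverse of the full lists.

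Along the chromosome, acetylated regions were concentrated in the distal part. The first region began at 3027172 and the last ended at 121670187, and in fixed bins of 5 Mb, to which peaks were assigned by their summits, the first 60 Mb held 778 regions. The bin from 115 to 120 Mb was the densest. It contained 309 regions, 39 of them listed by all 6 libraries, with 146, 255 and 163 peaks in MLX-DN versus 60, 165 and 114 in MLX-WT. From 75 to 80 Mb there were 261 regions, with 130, 221 and 160 peaks in MLX-DN versus 45, 133 and 90 in MLX-WT. The third by mean peak density was the bin from 100 to 105 Mb, with 233 regions, 107, 190 and 125 MLX-DN peaks and 34, 124 and 72 MLX-WT peaks. The 5 bins with the most regions held 1213 regions, or 43.8% of the chromosome's total.

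Other stretches were almost free of H4ac peaks. The bin from 35 to 40 Mb held 5 regions, with 1, 4 and 1 peaks in MLX-DN versus 1, 3 and 2 in MLX-WT. Between 10 and 15 Mb there were 23 regions and between 15 and 20 Mb 31. The longest stretches without a peak in any library ran from 12365257 to 16407440 (4042 kb), from 90500099 to 93746367 (3246 kb) and from 9019001 to 11708562 (2690 kb). Both the dense and the empty stretches recurred in all libraries: Spearman's rho of the peak numbers over the 25 bins lay between 0.94 and 0.99 in the 15 pairs of libraries, which share the sequence and gene content of the bins.

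**Figure D1:**
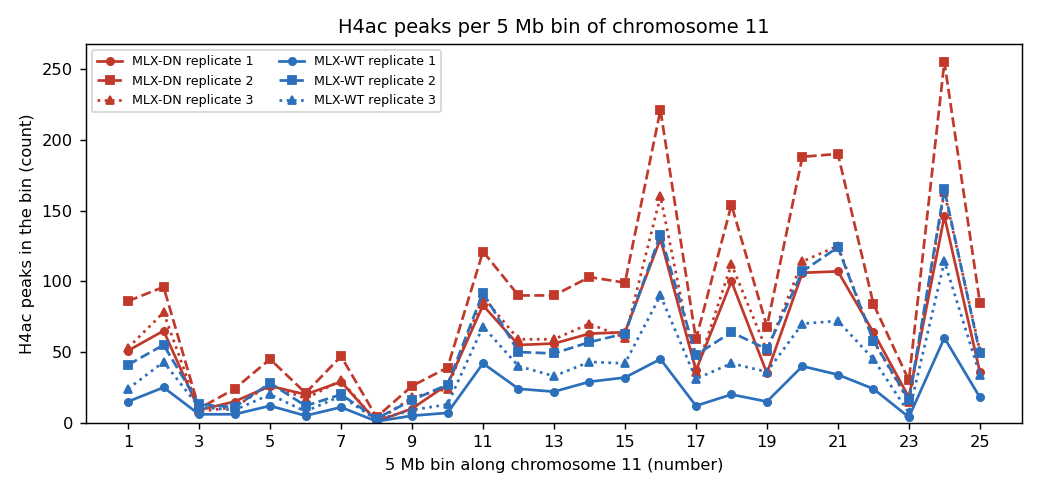
The number of H4ac peaks (vertical axis, count) in each 5 Mb bin of chromosome 11 (horizontal axis, bin number from the start of the chromosome) is drawn as 1 line per library, red for MLX-DN and blue for MLX-WT. The lines share their peaks and troughs: bin 24, with 60 to 255 peaks, is the highest in each library and bin 8, with 1 to 4 peaks, the lowest.

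Between the groups, 1 bin took a higher share of the peaks in MLX-DN and 4 took a lower share. The share was tested as the log2 of the peaks in a bin (plus 0.5) over the peaks of the library, with limma over all bins of the genome with a mean of at least 5 peaks and Benjamini-Hochberg adjustment. Of 24 chromosome 11 bins tested, 5 passed an adjusted p of 0.05, against 28.1% of the 434 bins tested over the genome. Higher shares were found at 15% of those bins and lower shares at 13.1%. In 10 of the 24 the groups did not overlap, against 44% over the genome. An unadjusted p under 0.05 was reached by 9 bins. Estimates were below 0 in 18 of the 24, with a median log2 difference of −0.19, against −0.04 over all bins of the genome. The count of 5 fell to 3 when replicate 3 of either group was left out. Scaled to the chromosome's own peaks instead of the library's, 2 bins were higher and 2 lower, and with no scaling 4 were higher and none lower.

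The bin from 85 to 90 Mb was the 1 that rose in MLX-DN. It held 185 regions and 100, 154 and 112 peaks in the MLX-DN libraries against 20, 64 and 42 in the MLX-WT libraries, without overlap of the groups. As a share of the library these were 0.658%, 0.621% and 0.663% against 0.371%, 0.469% and 0.446%. The log2 difference was 0.59 (SE 0.10, limma adjusted p = 0.00220). In 1 Mb steps, the stretch from 86 to 87 Mb had 35, 62 and 47 peaks in MLX-DN versus 7, 18 and 12 in MLX-WT. The next 1 had 27, 37 and 26 against 7, 20 and 16, and that from 88 to 89 Mb 35, 51 and 34 against 5, 23 and 13. The flanking steps, from 85 to 86 and from 89 to 90 Mb, held at most 4 peaks in any library. From 75 to 80 Mb, 17 of the 261 regions were in every MLX-DN list and no list of MLX-WT. Such regions made up 5.01% of the chromosome's regions and 6.1% of those over the genome. The bin from 85 to 90 Mb also held 17, among its 185 regions, and 10 of these lay in 1 cluster described below.

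The control background beneath the peaks of this bin lay lower in every MLX-DN library, a difference that just missed the threshold. It is the caller's local estimate of reads without enrichment, recovered here from each peak's fold and p at regions that all 6 libraries listed, relative to the library's mean over such regions. Over 9 such regions it was 0.958, 0.969 and 0.917 in MLX-DN versus 1.27, 1.10 and 1.07 in MLX-WT, a ratio of 0.829 with no overlap (limma adjusted p = 0.0590). ChIP reads at the same regions, relative to the library's mean, were 1.01, 1.02 and 1.06 in MLX-DN versus 1.04, 1.11 and 1.06 in MLX-WT (limma adjusted p = 0.343). The part of the background in the higher share of listed peaks was not tested.

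Part of the rise from 85 to 90 Mb came from 1 cluster of acetylated regions. Joining regions within 10 kb of each other gave on chromosome 11 a longest cluster of 57.1 kb, from 86382175 to 86439296, which with 34 regions was also the largest on the chromosome and ranked 3rd in the genome by number of regions. It had 20, 31 and 27 peaks in the MLX-DN libraries and 3, 4 and 3 in the MLX-WT libraries. Peaks covered 18.8%, 31.0% and 21.5% of its length in MLX-DN versus 1.88%, 2.38% and 2.12% in MLX-WT, far from overlapping. The log2 difference in peak share was 1.71 (SE 0.29, limma adjusted p = 0.000551 over 648 clusters of the genome, where its p ranked 5th), and it passed the test in 6 of 6 fits with 1 library left out. In lists of equal length the log2 difference was 1.60 but missed the threshold (limma adjusted p = 0.0507). The cluster was chosen by its number of regions and bounded by joining them, and 27 of the 34 were in no MLX-WT list. Its choice and extent thus lean on the group where it is high, so these p-values and fits only describe it.

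Within the cluster, 27 of the 34 regions were in no MLX-WT list, 10 of them in all 3 MLX-DN lists. On the whole chromosome 45.1% of regions were in no MLX-WT list, and over the genome 51.5%. Regions in every MLX-DN list and no list of MLX-WT made up 6.1% over the genome. At least 2 MLX-DN libraries listed 25 regions of the cluster, and at least 2 MLX-WT libraries listed 2. On the whole chromosome such regions numbered 1409 and 739 of 2772, and over the genome 15526 and 7551 of 31891. The single region of the cluster listed by all 6, from 86392354 to 86393697, had folds of 3.87, 3.97 and 5.005 in MLX-DN versus 2.49, 3.95 and 4.05 in MLX-WT. The widest of the 10 spanned 1497 bp, from 86395470 to 86396966, and its folds were 4.54, 3.02 and 3.70. Near the distal end, the region from 86437194 to 86437964 had folds of 7.93, 7.49 and 3.18, the first 2 well above the third. The median fold of the cluster's peaks was 4.42, 4.41 and 4.03 in the MLX-DN lists and 4.23, 3.43 and 4.05 in the MLX-WT lists, which overlapped. Fold is the authors' value for each peak, the ChIP reads over the background, and it serves here only to describe peaks within a list. The median background beneath the cluster's peaks was 5.0, 4.25 and 5.75 reads in MLX-DN versus 5.0, 5.0 and 4.68 in MLX-WT. Over all chromosome 11 peaks it was 8.0, 6.0 and 8.75 reads in MLX-DN versus 9.0, 7.25 and 7.88 in MLX-WT, so peaks of the cluster stood on a lower background than the chromosome's median in each list. Without this cluster the bin kept a log2 difference of 0.38 (limma adjusted p = 0.0301).

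**Figure D2:**
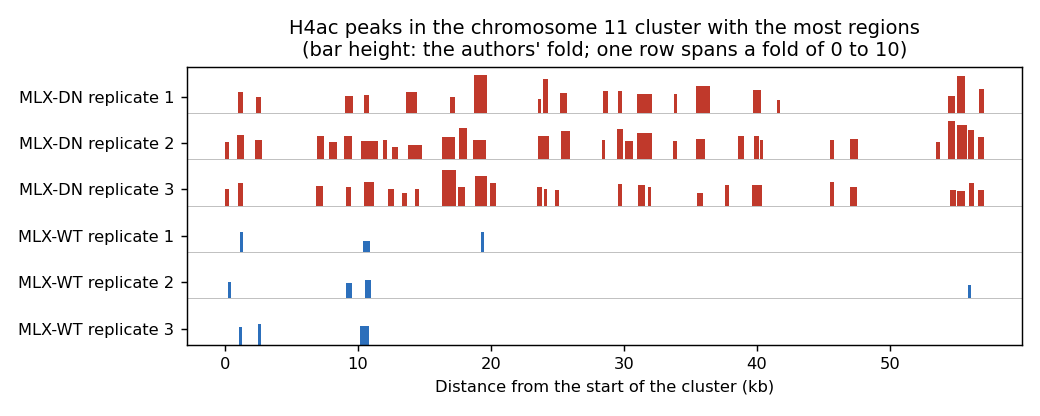
Each row is 1 library and each bar 1 listed peak of the cluster with the most regions, placed by its distance from the start of the cluster (horizontal axis, kb), with the authors' fold as bar height (1 row spans 0 to 10). The MLX-DN rows hold 20, 31 and 27 peaks spread over the 57.1 kb, whereas the MLX-WT rows hold 3, 4 and 3, most of them in the proximal part.

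The 4 bins with a lower share in MLX-DN lay at 10 to 15, 50 to 55, 70 to 75 and 115 to 120 Mb. The sparse bin from 10 to 15 Mb had 9, 10 and 8 peaks in MLX-DN versus 6, 13 and 11 in MLX-WT. Its raw numbers overlapped, whereas its shares, 0.0592%, 0.0403% and 0.0473% against 0.111%, 0.0952% and 0.117%, did not. The log2 difference was −1.15 (SE 0.23, limma adjusted p = 0.00395). With peaks of a −log10 q of at least 5 it was −0.85 and missed the threshold (limma adjusted p = 0.0778). Background over its 3 shared regions was 0.757 ± 0.0972 in MLX-DN versus 0.786 ± 0.122 in MLX-WT (SD, n = 3).

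From 50 to 55 Mb the libraries listed 83, 121 and 89 peaks in MLX-DN versus 42, 92 and 68 in MLX-WT. These were 0.546%, 0.488% and 0.527% of the MLX-DN lists and 0.780%, 0.674% and 0.722% of the MLX-WT lists, without overlap. The log2 difference in share was −0.48 (SE 0.091, limma adjusted p = 0.00343), and at equal list length it was −0.25 (limma adjusted p = 0.157). With no scaling to the library the estimate was 0.58, since more peaks were listed in MLX-DN in absolute number. This bin held 26 regions shared by all 6 libraries, over which the background was 1.04 ± 0.0104 in MLX-DN versus 1.12 ± 0.00636 in MLX-WT (SD, n = 3). That difference did not pass the test (log2 −0.11, SE 0.067, limma adjusted p = 0.307).

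The densest bin, from 115 to 120 Mb, took 0.960%, 1.03% and 0.965% of the MLX-DN lists and 1.11%, 1.21% and 1.21% of the MLX-WT lists. Its log2 difference was −0.26 (SE 0.068, limma adjusted p = 0.0122), and leaving out replicate 3 of MLX-DN or of MLX-WT gave an adjusted p of 0.0657 or 0.0536. At equal list length the log2 difference was −0.28 (limma adjusted p = 0.141). With peaks of a −log10 q of at least 5 it was −0.25 (limma adjusted p = 0.0535). Relative to the chromosome's own peaks it was −0.13 (limma adjusted p = 0.158). The bin from 70 to 75 Mb had 64, 99 and 60 MLX-DN peaks and 32, 63 and 42 MLX-WT peaks, a log2 difference in share of −0.35 (SE 0.12, limma adjusted p = 0.0468). That call was lost in 5 of 6 fits that left out 1 library, all but the one without MLX-WT replicate 2. Unscaled, both estimates were above 0, at 0.81 and 0.72.

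Among bins that did not pass, the largest positive estimates after that of 85 to 90 Mb were 0.26 from 110 to 115 Mb (limma adjusted p = 0.398) and 0.24 from 0 to 5 Mb (0.138). The former rested on 18, 30 and 15 peaks in MLX-DN versus 4, 16 and 7 in MLX-WT. From 0 to 5 Mb there were 51, 86 and 53 against 15, 41 and 24 peaks. The largest negative estimate among them was −0.38 from 90 to 95 Mb, with 35, 68 and 51 against 15, 52 and 36 peaks (limma adjusted p = 0.0680).

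**Figure D3:**
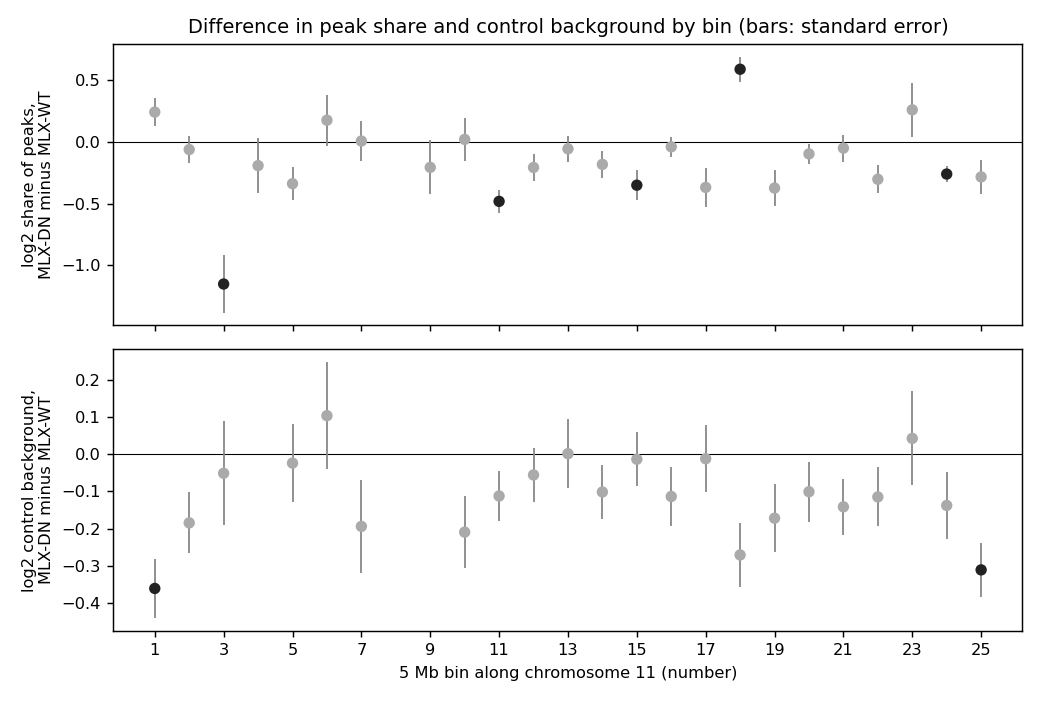
The upper panel gives the log2 difference in peak share, MLX-DN minus MLX-WT, and the lower panel the log2 difference in control background at regions shared by all 6 libraries, per 5 Mb bin (number), with standard errors as bars and limma adjusted p under 0.05 in black. Bin 18, at 0.59, is the highest of 6 bins above 0 in the upper panel and the only 1 of them in black, and most bins of the lower panel lie below 0.

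Estimates of control background were below those of MLX-WT along most of the chromosome, but few bins passed the test. It could be compared in the 22 bins with at least 3 regions shared by all 6 libraries, where the ratio of MLX-DN to MLX-WT ran from 0.778 to 1.07 with a median of 0.925 and lay below 1 in 19 bins. It passed the test as lower in 2 of 22 bins, against 6.99% of bins over the genome, and as higher in none, against 8.51%. These were the first bin, from 0 to 5 Mb, with 1.12, 1.01 and 1.12 in MLX-DN versus 1.42, 1.46 and 1.28 in MLX-WT (ratio 0.778, limma adjusted p = 0.0175), and the last, from 120 to 125 Mb, with 0.966, 1.04 and 0.986 against 1.30, 1.20 and 1.21 (ratio 0.806, limma adjusted p = 0.0229). Leaving out MLX-DN replicate 1 or 2 or MLX-WT replicate 2 lowered the 2 to 1, and leaving out MLX-DN replicate 3 or MLX-WT replicate 1 lowered it to 0. Neither bin passed the test of peak shares. ChIP reads at the shared regions fell in 12 of 22 bins, against 18.8% over the genome, and rose in none, against 27.1%, with estimates below 0 in 21. That count became 7, 6, 6 and 7 without MLX-DN replicates 1 and 2 and MLX-WT replicates 2 and 3. The largest of these differences was from 45 to 50 Mb, where 4 shared regions had relative reads of 0.847, 1.02 and 0.855 in MLX-DN versus 1.13, 1.18 and 1.15 in MLX-WT (log2 −0.35, limma adjusted p = 0.00283).

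Acetylated regions of chromosome 11 were closely packed, though not more so than those of chromosome 15 in most libraries. Neighbouring regions lay a median of 5.05 kb apart, with quartiles of 0.455 and 26.7 kb, and 980 of the 2771 gaps (35.4%) were under 1 kb. In contrast, 33 gaps were over 500 kb. Joined within 10 kb, 1681 regions (60.6%) belonged to 316 clusters of at least 3, compared with 51.8% of regions elsewhere, and 549 regions stood alone. Clusters of 10 or more regions numbered 31. A peak of 1 library was called clustered if at least 3 peaks of that library joined within 10 kb. By that measure chromosome 11 ranked 1st or 2nd of 20 in the MLX-DN libraries and MLX-WT replicate 2, 3rd in MLX-WT replicate 3 and 7th in MLX-WT replicate 1. Chromosome 15 had a higher clustered share in 4 of the 6 libraries, with 47.2% in MLX-DN replicate 3 and 28.6%, 42.8% and 32.2% in the MLX-WT libraries. In lists of equal length chromosome 11 ranked 6th, 10th and 8th in the MLX-DN libraries and 7th, 8th and 4th in the MLX-WT libraries.

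The clustered share was higher in every MLX-DN library in the full lists, and this did not hold in lists of equal length. It was 42.4%, 55.7% and 46.1% in MLX-DN versus 14.8%, 37.5% and 25.4% in MLX-WT, with means of 48.1% ± 6.86 and 25.9% ± 11.4 (SD, n = 3), at the smallest possible exact permutation p of 0.10. The median distance to the nearest peak was 2.55, 1.31 and 1.76 kb in MLX-DN against 24.2, 3.61 and 8.85 kb in MLX-WT. Within each group the longer lists were the more clustered. In lists of equal length the clustered shares were 14.9%, 12.8% and 17.1% in MLX-DN versus 14.8%, 9.81% and 13.9% in MLX-WT, which overlapped (exact permutation p = 0.40). The median distance then averaged 24.4 kb in both groups.

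Besides the cluster at 86 Mb, 7 more of the 83 chromosome 11 clusters with a mean of at least 3 peaks passed the test of peak share, a test added after the bins had been seen. In all, 5 were higher in MLX-DN, against 10.6% of the 648 clusters tested over the genome, and 3 lower, against 9.26%. The count of 8 became 4, 1 and 1 without MLX-DN replicates 1, 2 and 3 and 15 without MLX-WT replicate 2. None of the 9 chromosome 11 clusters that could be tested at equal list length passed. From 88326981 to 88375048, also within the 85 to 90 Mb bin, a cluster of 20 regions had 12, 15 and 13 peaks in MLX-DN versus 3, 4 and 2 in MLX-WT (log2 0.95, SE 0.33, limma adjusted p = 0.0459, kept in 1 of 6 fits with 1 library left out). This cluster too was chosen by its number of regions and bounded by joining them, and most of its peaks were MLX-DN peaks. Its p-value and fits therefore only describe it. The other 3 higher ones reached the minimum of 3 peaks only through the MLX-DN libraries, their MLX-WT means lying below it, and their numbers are therefore given with no test and the count of 5 is only a description. They were 8, 12 and 12 against 1, 2 and 3 peaks from 8324514 to 8351563, 7, 12 and 10 against 1, 2 and 2 from 79681457 to 79701358, and 5, 10 and 5 against 0, 1 and 0 from 102911616 to 102932592.

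Clusters with a lower share in MLX-DN had raw numbers that overlapped between the groups. The 8 regions from 117823653 to 117854239 had 4, 4 and 3 peaks in MLX-DN versus 2, 6 and 5 in MLX-WT (log2 share −1.18, SE 0.36, limma adjusted p = 0.0244). Close by, from 117775375 to 117811186, 12 regions had 7, 11 and 6 against 5, 9 and 7 peaks (log2 −0.90, limma adjusted p = 0.0325). Both lie in the densest bin, from 115 to 120 Mb. The 6 regions from 107576085 to 107593620 had 7, 5 and 3 against 3, 6 and 6 peaks (log2 −1.08, limma adjusted p = 0.0396). These 3 calls were kept in 3, 1 and 2 of 6 fits with 1 library left out. The largest clusters that did not pass were those from 119655315 to 119688182, with 21 regions and 6, 22 and 13 against 2, 4 and 3 peaks (limma adjusted p = 0.0815), and from 4160442 to 4209440, with 18 regions and 10, 18 and 13 against 1, 8 and 6 peaks (limma adjusted p = 0.195).

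Peaks on chromosome 11 were of rather low fold, and their median width ranked between 1 (the widest) and 13.5 of 20 chromosomes. The median width was 406, 429 and 408 bp in MLX-DN versus 383.5, 411 and 369 bp in MLX-WT, with means of 414 ± 12.7 and 388 ± 21.3 bp that overlapped (SD, n = 3; exact permutation p = 0.30). Peaks longer than 1 kb made up 3.47%, 7.56% and 4.70% in MLX-DN versus 2.14%, 3.92% and 2.05% in MLX-WT (exact permutation p = 0.20). In lists of equal length the widths separated: the medians were 539.5, 673.5 and 602 bp in MLX-DN versus 383.5, 516 and 436.5 bp in MLX-WT, and peaks over 1 kb were 14.03% ± 7.05 and 4.49% ± 2.91 (SD, n = 3; exact permutation p = 0.10 for each). Equal length cut the longer lists more deeply and left MLX-WT replicate 1 uncut. Within the full lists, the kept chromosome 11 peaks had median percentiles of −log10 q of 81.9, 89.5 and 83.7 in MLX-DN. In MLX-WT these were 49.6, 79.4 and 72.3. A group difference in width can therefore not be told apart here from the depth of the cut. When each library was instead limited to its 514 strongest chromosome 11 peaks, the mean of the medians was 589 against 453 bp and the groups overlapped (exact permutation p = 0.20). The median fold was 3.72, 3.97 and 3.57 in MLX-DN versus 3.62, 3.89 and 3.65 in MLX-WT, and it ranked between 13.5 and 18 of 20 chromosomes. By the median within-list percentile of −log10 q, chromosome 11 ranked between 1 and 12. By bin, the group means of the median fold ran from 3.56 to 4.06 in MLX-DN and from 3.52 to 4.66 in MLX-WT, with the highest value of each group from 25 to 30 Mb, a sparse bin of 28 regions.

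**Figure D4:**
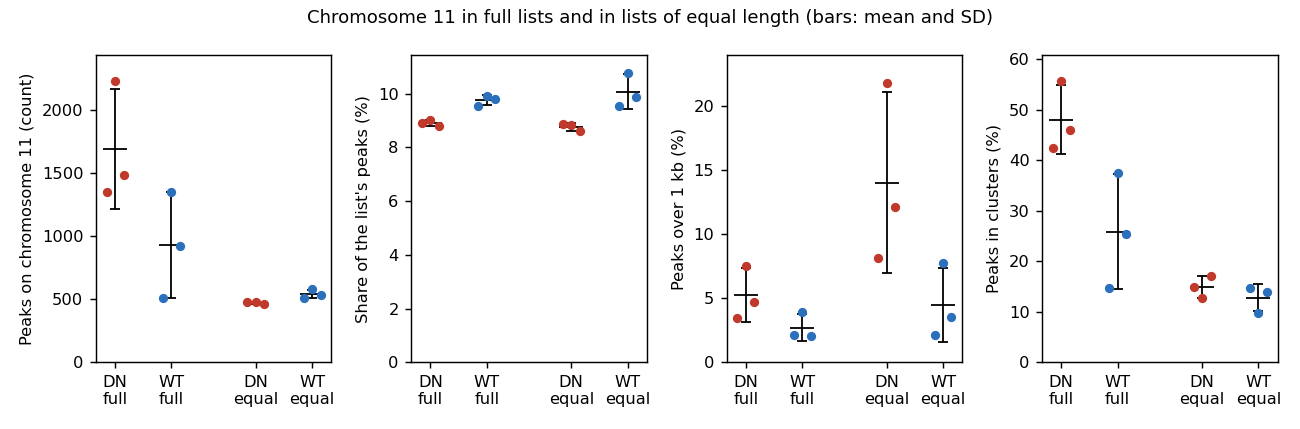
Points are libraries and bars the mean and SD of 3, for MLX-DN (red) and MLX-WT (blue), in the full lists and in the 5385 strongest peaks of each library; the panels give peaks on chromosome 11 (count), their share of the list, the share over 1 kb and the share in clusters (all in %). Peak number is higher on average in MLX-DN in full lists and lower at equal length, the share of the list is lower in both, and the clustered share separates the groups in full lists only.

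Most chromosome 11 regions found for MLX-WT were found for MLX-DN too. Regions present in 2 or more libraries of a group numbered 1409 for MLX-DN and 739 for MLX-WT, with 647 common to both sets, which is 45.9% of the MLX-DN set and 87.6% of the MLX-WT set. Over the genome these shares were 42.7% and 87.8%. The MLX-DN lists were the longer ones, with 15201, 24811 and 16898 peaks over the genome against 5385, 13652 and 9422 in MLX-WT. In lists of equal length 305 chromosome 11 regions were common to both sets. There, 13 were in every MLX-DN but no MLX-WT list, and 19 in every MLX-WT but no MLX-DN list. The part of list length in the shares was not tested. Leaving out MLX-WT replicate 2 or 3 lowered the 647 to 363 or 406. All 6 libraries listed 312 regions, 11.3% of the chromosome's total against 9.74% over the genome. A single library listed 1082 regions, of which 830 were in an MLX-DN list. The Jaccard index of covered base pairs was on average 0.403 for pairs of MLX-DN libraries, 0.308 for pairs of MLX-WT libraries and 0.289 for mixed pairs, against 0.400, 0.306 and 0.264 on the other chromosomes. Width followed the number of lists: the median was 937 bp for regions of all 6 libraries, 620 bp for those of every MLX-DN but no list of MLX-WT, and 319 and 302 bp for those of 1 MLX-DN or 1 MLX-WT library. A region takes its width from the merging of its peaks, so that more lists give wider regions by construction. In the 210 regions with exactly 1 peak in each library, the 6 summits spread over a median of 133.5 bp and lay within 100 bp in 59.

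The regions ranked highest by every library were chosen by the lowest of their 6 within-list percentiles of −log10 q, so that high folds in both groups follow from the choice. The first, from 29072944 to 29073606 and 663 bp wide, had a lowest percentile of 99.25, with folds of 5.74, 9.98 and 5.39 in MLX-DN versus 7.23, 10.3 and 7.01 in MLX-WT. The second, from 77420517 to 77421348, had folds of 6.83, 7.22 and 7.45 and 6.51, 8.40 and 5.78. From 59622846 to 59623913 the folds were 6.35, 10.7 and 5.48 in MLX-DN versus 6.35, 9.96 and 5.75 in MLX-WT. In these 3 regions replicate 2 of one or both groups had the highest fold. From 120442305 to 120443933, 1629 bp, they were 8.16, 11.7 and 6.00 against 6.58, 5.60 and 5.001. From 68901527 to 68902565 they were 6.18, 7.39 and 4.83 against 6.00, 6.11 and 5.90.

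The widest region of the chromosome, from 103001537 to 103004522 (2986 bp), was listed by all 6 libraries as 2 or 3 peaks each. Its highest folds were 4.58, 6.70 and 4.45 in MLX-DN versus 3.29, 3.82 and 3.83 in MLX-WT, each list on its own scale. Next came the regions from 69180458 to 69183145 (2688 bp), with folds of 7.27, 5.95 and 6.06 against 8.64, 8.40 and 3.84, and from 53880286 to 53882931 (2646 bp), with 3.61, 7.24 and 4.25 against 3.43, 4.20 and 3.94. The fourth, from 107576085 to 107578686 (2602 bp), had folds of 4.10, 4.29 and 4.53 against 3.52, 4.81 and 4.42. Of the 5 widest regions only the last, from 100150459 to 100153041, was in no MLX-WT list.

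Every MLX-DN list, but none of MLX-WT, contained 139 regions, 5.01% of the chromosome's regions against 6.1% over the genome. Most lay within 10 kb of an MLX-WT peak, 99 (71.2%), but fewer within 1 kb, 49 (35.3%). For such regions over the genome these shares were 52.4% and 27.7%. Their median distance to an MLX-WT peak was 2.32 kb and the farthest was 206 kb. Leaving out MLX-DN replicate 1 or 3 or MLX-WT replicate 2 raised the 139 to 291, 242 or 263. It was 82 with a −log10 q of at least 5 and 13 in lists of equal length. The highest in rank, from 72974704 to 72975353, had folds of 4.70, 5.63 and 4.85, on 39, 47 and 41 ChIP reads, and an MLX-WT peak 0.37 kb away. The second was the 2583 bp region from 100150459, with folds of 4.90, 5.89 and 5.65 and an MLX-WT peak at 1.53 kb. From 95635158 to 95635632 the folds were 5.41, 6.15 and 4.67, with an MLX-WT peak at 0.32 kb. The other two stood farther from any MLX-WT peak. They ran from 115795038 to 115795549, with folds of 5.05, 4.99 and 3.87 and 21.3 kb between, and from 62037771 to 62038987, with folds of 5.50, 4.85 and 4.65 and 55.6 kb between.

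The opposite pattern, a region in every MLX-WT list but none of MLX-DN, was found at 1 region of the chromosome, against 0.166% of regions over the genome. It ran from 102069394 to 102070088, had folds of 2.64, 4.64 and 4.79 on 37, 35 and 31 ChIP reads, and stood 17.9 kb from the nearest MLX-DN peak. MLX-WT replicate 1 ranked it low, at percentile 13.1 of its list. The count of 1 became 2 to 20 with 1 library left out, the highest without MLX-WT replicate 1, and 19 in lists of equal length. With 3 libraries against 3 no single region can reach an exact p below 0.10, so the regions of either pattern were not tested one by one.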

How the data were processed

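H4ac ChIP-seq of 3 MLX-DN and 3 MLX-WT libraries was compared; groups and replicate numbers come from the titles, and the 6 input libraries entered only through the background in the lists. Per the submitters' processing notes the build is mm9 and the tools include BWA 0.5.9-r26, Picard 1.65 and MACS2 2.0.9. Their roles and settings, and which control each list used, are not stated in the sources used here. Each list holds the peaks of 1 library. The authors deposited for each peak a fold over background (a ratio), its −log10 p-value and −log10 q-value, a score that restates q, and the summit offset. The lowest −log10 q was 1.31 to 1.35 and the shortest peak 250 bp.

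ChIP reads and background were recovered from fold and p, taken as pileups with a pseudocount of 1 and a Poisson probability. A scan over scale factors (0.848 to 1) matched 100.0% of peaks within 0.001 of the −log10 p. ChIP depth came to 3.299 to 3.90 reads per 250 bp, and the weakest chromosome 11 peaks rested on 14 to 19 reads. Absolute read totals are unknown.

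Single values per library were compared with the exact permutation test over 20 assignments. Bins and clusters were fitted over the whole genome with limma 3.58.1 (trend) in R 4.3.3, 3 libraries against 3, with no block, after tests on simulated data. Background and ChIP reads per bin were averaged over regions listed by all 6 libraries. As alternatives, the −log10 q had to reach 5, or the comparison used equal list lengths, peaks covering 50% of a region, other bin sizes, offsets, scalings and joining distances, each library left out and the replicate number as a block. The test of clusters, that of ChIP reads, the limit of 514 peaks and the bin without its largest cluster were added after seeing the data. Named bins, regions and clusters followed a rule by density, difference, rank, width or size; called clusters outside the 5 largest, and the bin and regions singled out within the largest cluster or by ChIP reads, were named after their values had been seen. Members, lists and tests were chosen with earlier results of these data known.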

Additional observations from a re-analysis of the deposited data

How the results depend on the processing

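Peak share, covered length, width, share over 1 kb and clustered share kept their direction under every alternative run, with exact permutation p at or above 0.10 throughout. The log2 ratio of peak numbers, 0.94, turned to −0.20 in lists of equal length and was 0.56 to 1.26 with 1 library left out. With no scaling to the library, the bins at 50 to 55, 70 to 75 and 115 to 120 Mb turned to 0.58, 0.72 and 0.81. The number of bins that differ, 5 of 24, was 10 of 47 with 2 Mb bins, about the same share, 9 by base pairs under peaks and 3 to 7 with 1 library left out. An exact permutation test per bin called 0 (smallest adjusted p 0.224), but that outcome was fixed in advance. Its smallest possible p is 0.10, so no bin could pass 0.05. The number of clusters that differ, 8, was 0 at equal length (9 tested), 17 by base pairs and 1 to 15 with 1 library left out. The higher clusters among the 8 were chosen, bounded or filtered largely through MLX-DN peaks, so these cluster counts are only a description. Bins with lower background numbered 0 to 2 and those with lower ChIP reads 6 to 10 when any 1 library was omitted. Regions in at least 2 libraries of both groups numbered 305 at equal length, 380 where peaks covered 50% of a region and, leaving out 1 library, 363 to 590. Those of MLX-DN only numbered 82 with a −log10 q of at least 5, 13 at equal length and 147 to 291 when 1 was omitted. Regions of MLX-WT only numbered 0, 19 and 2 to 20 under the same alternatives, and 2 at 50% cover. The causes were not tested, beyond fewer peaks or libraries entering by construction.

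With the replicate number as a block, 8 bins (1 higher, 7 lower) and, again only as a description, 15 clusters (7 higher, 8 lower) passed. Single values then had an exact permutation p of 0.25, the smallest that 3 pairs allow. Deviations of same-numbered libraries correlated weakly, at 0.0642, 0.119 and 0.0372 over 434 bins, although each of the 6 libraries correlated best with its own number. Whether the numbers pair the libraries is not in the labels and was not tested. Depth limits weak peaks: a region missing from a list may hold reads below the caller's threshold.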
